A study of Mus musculus with 4 samples.

Results

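The 10 genes described here encode the 5 NF-kB subunits (Nfkb1, Nfkb2, Rel, Rela and Relb) and 5 proteins of the IkB family (Nfkbia, Nfkbib, Nfkbie, Nfkbid and Bcl3). They were chosen by symbol from the 25509 genes listed in a table of estimated RNA counts, in which each symbol matched 1 row, and all 10 were among the 12135 genes with enough counts to be tested. The table covers 4 RNA sequencing libraries of mouse CD4+ T cells, 2 of wild-type cells (WT 1 and WT 2) and 2 of Batf3-/- cells (Batf3-/- 1 and Batf3-/- 2, the numbers being the replicate numbers of the labels), which lack the basic leucine zipper transcription factor BATF3. In both genotypes, naive CD4+ cells (CD25-negative, CD62L-high and CD44-low) had been sorted from spleen and then stimulated for 72 h through CD3 and CD28 with TGFb, IL-4 and TL1A added; the labels call this a TH9 condition, and TL1A is a cytokine of the TNF family. The labels give neither the strain, age or sex of the mice nor the part of Batf3 that the allele lacks. They do not say that the 2 replicates of a genotype came from separate animals or cultures. The p-values therefore reflect the spread between these samples alone. Replicates were not repeat libraries of the same RNA: Xist, an RNA of the inactive X chromosome, stood at 0.214 CPM in WT 1 and 166 in WT 2. In Batf3-/- 1 and Batf3-/- 2 it stood at 0.0944 and 144 CPM.

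NF-kB factors are dimers of 5 subunits that share a Rel homology domain. RELA, c-REL and RELB carry transactivation domains, whereas NFKB1 and NFKB2 are made as long precursors, p105 and p100, that are processed to p50 and p52. The classical inhibitors IkB-alpha, IkB-beta and IkB-epsilon (Nfkbia, Nfkbib and Nfkbie) hold dimers in the cytoplasm until the IKK complex marks them for degradation, and several of these genes are themselves NF-kB targets. BCL3 and IkBNS (Nfkbid) are atypical members that act in the nucleus, mainly with p50 and p52. In T cells the pathway is driven by the antigen receptor through BCL10 and MALT1 and by TNF receptors, among them the TL1A receptor encoded by Tnfrsf25, and messenger RNA levels say nothing of where these proteins are or whether they are active.

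Promoter sequences are shown for Bcl3, the member with the largest difference between the genotypes, and for Nfkbia, Nfkb2 and Nfkbie, which also hold the motif that NF-kB binds; that of Nfkbie holds an AP-1 motif as well. RefSeq windows on GRCm38.p6, from 250 bases before to 50 after an annotated start, were at hand for 8 of the 10 members in 12 windows; Nfkb1 and Relb were not matched. The kappaB consensus motif, searched on both strands, was found in windows of 6 members (Nfkb2, Rel, Nfkbia, Nfkbie, Nfkbid and Bcl3) and in 8 of the 12 windows, against 8.46% of the 32851 windows of all genes. Windows 2 and 3 of Nfkb2 overlap and share 1 match. The AP-1 motif TGANTCA, of the kind that BATF-family dimers bind, was found in 2 of the 12 windows, against 7.81% of all windows. These were 1 window of Nfkb2 and 1 of Nfkbie. The cyclic AMP response motif TGACGTCA was found in 1 of the 12, of Nfkbid, against 1.79%. A match in these letters is a description and not evidence of binding. In the sequences below, 5′ to 3′ on the gene's strand, capitals mark kappaB consensus matches and TGANTCA. For Bcl3 (chr7:19822706-19823005, minus strand) the kappaB match runs from base 3 to 12 after the start; for Nfkbia (chr12:55492598-55492897, minus strand) from position -29 to -20; for the first Nfkb2 start (chr19:46304487-46304786, plus strand) overlapping matches run from -39 to -29 and a further one from -11 to -2; for Nfkbie (chr17:45555450-45555749, plus strand) TGANTCA lies from -156 to -150 and the kappaB match from -106 to -97.
Bcl3: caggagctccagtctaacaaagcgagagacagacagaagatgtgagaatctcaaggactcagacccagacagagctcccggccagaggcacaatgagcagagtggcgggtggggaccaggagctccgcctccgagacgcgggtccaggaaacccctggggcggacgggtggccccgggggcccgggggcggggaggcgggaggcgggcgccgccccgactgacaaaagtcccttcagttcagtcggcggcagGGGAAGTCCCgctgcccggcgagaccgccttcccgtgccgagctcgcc
Nfkbia: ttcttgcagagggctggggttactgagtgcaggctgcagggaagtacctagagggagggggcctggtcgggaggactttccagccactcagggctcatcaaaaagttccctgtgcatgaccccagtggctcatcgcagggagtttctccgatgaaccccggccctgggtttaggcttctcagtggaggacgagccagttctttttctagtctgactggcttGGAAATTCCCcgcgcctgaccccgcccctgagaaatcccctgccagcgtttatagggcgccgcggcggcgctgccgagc
Nfkb2: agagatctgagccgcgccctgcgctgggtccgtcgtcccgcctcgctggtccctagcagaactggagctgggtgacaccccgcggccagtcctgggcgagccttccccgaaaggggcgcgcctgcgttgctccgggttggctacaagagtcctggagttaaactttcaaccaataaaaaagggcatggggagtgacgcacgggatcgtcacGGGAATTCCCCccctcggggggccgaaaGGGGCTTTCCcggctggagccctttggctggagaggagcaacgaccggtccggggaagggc
Nfkbie: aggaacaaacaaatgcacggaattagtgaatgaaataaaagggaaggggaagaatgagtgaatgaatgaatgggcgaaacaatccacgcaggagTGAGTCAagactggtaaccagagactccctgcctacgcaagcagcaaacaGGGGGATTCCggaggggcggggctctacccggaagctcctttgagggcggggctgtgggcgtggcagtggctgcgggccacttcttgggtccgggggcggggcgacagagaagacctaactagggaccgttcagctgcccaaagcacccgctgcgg

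Estimated counts summed to between 15624874 (Batf3-/- 2) and 31098059 (Batf3-/- 1) per library. Levels are given as CPM, counts scaled to a common library size with TMM factors. Batf3 was at 61.7 CPM in WT 1 and 60.5 in WT 2 and at 0.535 and 0.517 in the Batf3-/- libraries, so all 4 libraries matched their genotype labels. WT 1 differed most from the rest, with correlations of log2 CPM of 0.971 to 0.976 to them, against 0.981 or more among the other 3. The replicates also differed in Xist, the RNA of the inactive X chromosome, at 0.214 CPM in WT 1, 0.0944 in Batf3-/- 1, 166 in WT 2 and 144 in Batf3-/- 2. The summed level of the Y-linked genes Kdm5d, Eif2s3y, Uty and Ddx3y was 344, 243, 146 and 182 CPM in the same order of libraries, and the part of these differences in the results was not tested. T cell markers were present throughout, with a summed level of 2603 to 2719 CPM for 8 genes. Of 26 markers of other cell types 9 had no count in any library, including Ms4a1 (B cells), Lyz2 and Itgam (myeloid cells) and Ncr1 (natural killer cells). Another 4 were above 1 CPM: Cd8b1 (CD8 T cells), Cd79b (B cells), and Flt3 and Zbtb46 (dendritic cells). The highest value of any of the 26 was 13.1 CPM, and their sum was 26.1 to 32.3 CPM.

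All 10 genes were expressed in every library, with 308 to 20826 counts per gene and library, all of them exactly whole numbers in the deposited table. No member passed the test for a difference between Batf3-/- and WT cells: 0 of 10 had an adjusted p under 0.05 (edgeR quasi-likelihood test over all genes), against 0.132% of the tested genes. DESeq2 and limma-voom also called 0 members. Over all tested genes DESeq2 called 0.239%, and limma-voom called 10 genes higher and 6 lower. In such bulk RNA, fewer cells that express a gene and less RNA per cell cannot be told apart. At an unadjusted p under 0.05 there was 1 member, Bcl3, against 4.8% of tested genes. The log2 fold change, Batf3-/- minus WT, was positive for 8 members and negative for 2, with a median of 0.25 against -0.01 over all tested genes, of which 48.4% were positive. The median rested on which WT library was kept: it was 0.02 with WT 1 left out and 0.45 with WT 2 left out. Both Batf3-/- libraries lay above both WT libraries for 4 members (Relb, Nfkbia, Nfkbib and Bcl3), as they did for 18.2% of tested genes, and below them for 1 (Rel), as they did for 15.6%. Together these are 5 of 10 members without overlap, against 33.8% of tested genes.

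**Figure D1:**
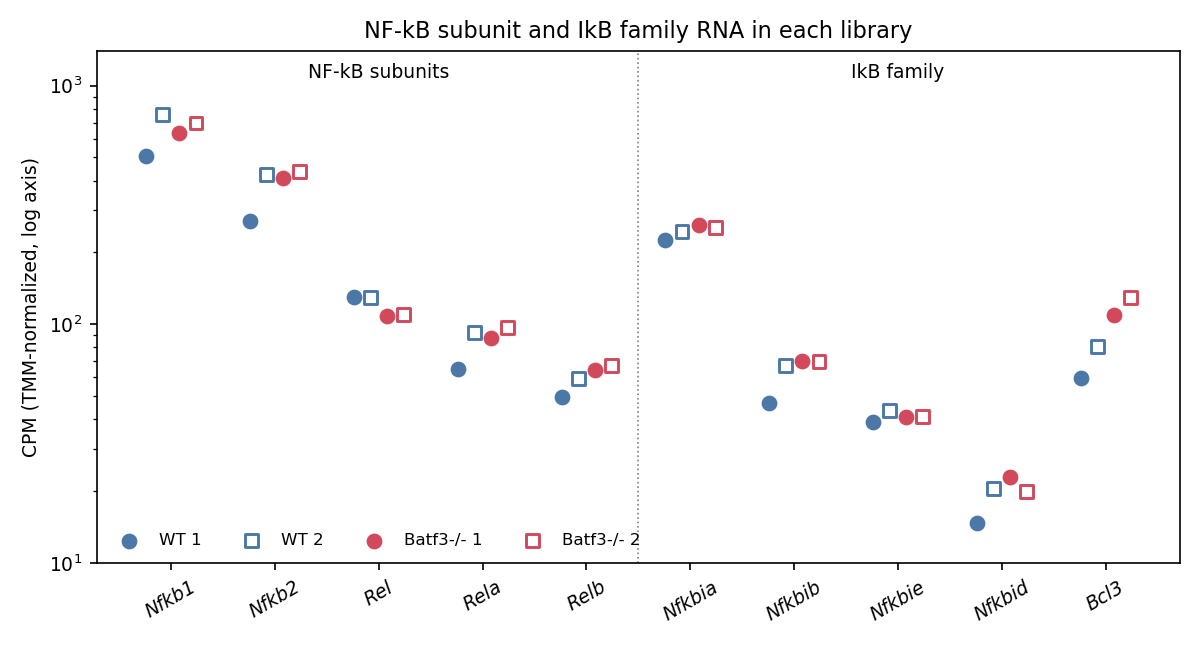
Normalized RNA level (CPM, log axis) of the 5 NF-kB subunit genes and the 5 IkB family genes; each point is 1 library, blue for WT and red for Batf3-/-, filled circles for replicate 1 and open squares for replicate 2. WT 1 is the lowest library for every gene but Rel, and both Batf3-/- libraries lie above both WT libraries for Bcl3.

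Among the precursor subunits, Nfkb1 (ENSMUSG00000028163.17, GRCm38 chromosome 3, 135584655 to 135691547, protein coding), which encodes p105 and p50, stood at 507 CPM in WT 1 and 759 in WT 2, with 633 in Batf3-/- 1 and 697 in Batf3-/- 2. The Batf3-/- libraries lay between the WT libraries, so the groups overlapped (log2 fold change 0.07, SE 0.21, adjusted p = 0.980, edgeR). Its log2 fold change was -0.20 without WT 1 and 0.39 without WT 2. The annotated gene Gm43430, which overlaps Nfkb1 on the same strand by 3897 bases, is not among the genes listed with counts. Nfkb2 (ENSMUSG00000025225.14, chromosome 19, 46304320 to 46312385), which encodes p100 and p52 of the alternative pathway, stood at 270 CPM in WT 1, 424 in WT 2, 411 in Batf3-/- 1 and 436 in Batf3-/- 2. Here 3 libraries were alike and WT 1 was lower (log2 fold change 0.29, SE 0.22, adjusted p = 0.958, edgeR); without that library the log2 fold change was -0.01. Without WT 2 it was 0.65 with an adjusted p of 0.0232 in edgeR, a fit that assumes the 1 WT library left to vary like the Batf3-/- libraries and that called 4.46% of the genes it tested; it called 2 members, Nfkb2 and Bcl3. In the annotation Nfkb2 overlaps Psd on the opposite strand by 299 bases; Psd had 74 to 308 counts per library against 6305 to 13059 for Nfkb2, and the sources used here do not state the strand setting of the counting.

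Among the subunits with transactivation domains, Rel (ENSMUSG00000020275.9, chromosome 11, 23736847 to 23770970), whose product c-REL is prominent in activated lymphocytes, was the only member with both Batf3-/- libraries below both WT libraries. Its level was 130.4 CPM in WT 1, 130.1 in WT 2, 108.7 in Batf3-/- 1 and 110.4 in Batf3-/- 2. The replicates were close together in both genotypes, with a WT mean of 130.2 ± 0.224 CPM and a Batf3-/- mean of 109.5 ± 1.18 CPM (± SD, n = 2 libraries), and the Batf3-/- level was 84.1% of WT (log2 fold change -0.25, SE 0.18, adjusted p = 0.958, edgeR). Within replicate numbers 1 and 2 the log2 ratios of Rel were -0.26 and -0.24. This difference did not pass the test, and with the correction for GC content described below it was -0.09.

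Rela (ENSMUSG00000024927.7, chromosome 19, 5637483 to 5648130), which encodes p65, the main transactivating partner of p50, stood at 65.2 CPM in WT 1, 92.4 in WT 2, 87.7 in Batf3-/- 1 and 96.7 in Batf3-/- 2. WT 1 was again the low library and the groups overlapped (log2 fold change 0.22, SE 0.20, adjusted p = 0.958, edgeR; -0.01 without WT 1 and 0.50 without WT 2). Relb (ENSMUSG00000002983.16, chromosome 7, 19606217 to 19629438), the partner of p52 in the alternative pathway, stood at 49.6 CPM in WT 1, 59.5 in WT 2, 64.6 in Batf3-/- 1 and 67.4 in Batf3-/- 2. The groups did not overlap, but the step between the WT libraries was larger than the step from WT 2 to the nearer Batf3-/- library (log2 fold change 0.27, SE 0.19, adjusted p = 0.958, edgeR). Relb was at a log2 fold change of 0.14 without WT 1 and of 0.41 without WT 2.

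Of the classical inhibitors, Nfkbia and Nfkbie differed little between libraries and Nfkbib more. Nfkbia (ENSMUSG00000021025.7, chromosome 12, 55489410 to 55492647), whose product IkB-alpha is resynthesized after NF-kB activation and ends it, stood at 225 CPM in WT 1, 245 in WT 2, 259.5 in Batf3-/- 1 and 254 in Batf3-/- 2. The groups did not overlap, yet the difference was small (log2 fold change 0.13, SE 0.19, adjusted p = 0.960, edgeR), with a 95% interval of 0.834 to 1.43 for the fold. Nfkbie (ENSMUSG00000023947.7, chromosome 17, 45555703 to 45563169), encoding IkB-epsilon, stood at 39.0 CPM in WT 1, 43.6 in WT 2, 40.8 in Batf3-/- 1 and 41.2 in Batf3-/- 2. Both Batf3-/- values lay between the WT values (log2 fold change -0.01, SE 0.19, adjusted p = 0.994, edgeR). The 95% interval of the fold, 0.749 to 1.32, did not reach 2-fold in either direction, and neither did those of the other members except Bcl3. These intervals reflect the spread between 2 libraries per genotype alone. Nfkbib (ENSMUSG00000030595.15, chromosome 7, 28758251 to 28767512), encoding IkB-beta, stood at 46.7 CPM in WT 1, 67.5 in WT 2, 70.4 in Batf3-/- 1 and 70.1 in Batf3-/- 2. As with Nfkb2, 3 libraries were alike and WT 1 was lower (log2 fold change 0.30, SE 0.20, adjusted p = 0.958, edgeR; 0.05 without WT 1 and 0.59 without WT 2). The annotated span of Nfkbib overlaps that of Sirt2, an expressed gene on the opposite strand, by 778 bases. Sirt2 had 1426 counts in WT 1, 2266 in WT 2, 2543 in Batf3-/- 1 and 1286 in Batf3-/- 2. Nfkbib had fewer in each library, at 1090, 1852, 2236 and 1084 in the same order. Whether the overlap affects the Nfkbib level was not tested.

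The atypical members differed from each other. Nfkbid (ENSMUSG00000036931.14, chromosome 7, 30421732 to 30428746), encoding IkBNS, was the least abundant member per kilobase of transcript. It stood at 14.7 CPM in WT 1, 20.5 in WT 2, 23.0 in Batf3-/- 1 and 19.9 in Batf3-/- 2. The groups overlapped (log2 fold change 0.29, SE 0.23, adjusted p = 0.958, edgeR), and the log2 fold change was 0.07 without WT 1 and 0.55 without WT 2. Bcl3 (ENSMUSG00000053175.16, chromosome 7, 19808462 to 19822770), whose product binds p50 and p52 homodimers in the nucleus, had 1387 counts in WT 1, 2223 in WT 2, 3469 in Batf3-/- 1 and 2002 in Batf3-/- 2. Scaled for library size these are 59.5, 81.0, 109 and 129 CPM, in the same order. Both Batf3-/- libraries were above both WT libraries, and within replicate numbers 1 and 2 the log2 ratios were 0.88 and 0.68.

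Bcl3 had the largest fold change of the 10 members. The WT mean was 70.2 ± 15.25 CPM and the Batf3-/- mean 119 ± 14.3 CPM (± SD, n = 2 libraries), a 1.70-fold difference with a 95% interval of 1.27 to 2.27 (log2 fold change 0.76, SE 0.20, unadjusted p = 0.00121 in edgeR's quasi-likelihood test). It ranked 48 of 12135 genes by p-value and did not pass the adjustment over all genes (adjusted p = 0.294, edgeR; 0.136 in DESeq2 and 0.314 in limma-voom). Its log2 fold change was 0.55 without WT 1 (adjusted p = 0.301, edgeR) and 1.00 without WT 2 (adjusted p = 0.00136, edgeR with 1 WT library left). With the correction for GC content it was 0.31 with an SE of 0.17 and did not pass. A fit with the replicate number as a block called 0.923% of tested genes and 1 member, Bcl3; whether the numbers pair the libraries could not be established. The annotation holds the antisense genes Gm16174 and Gm16175 within Bcl3, which are not among the genes listed with counts. Reads from the opposite strand cannot be told apart if the counting ignored strand.

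**Figure D2:**
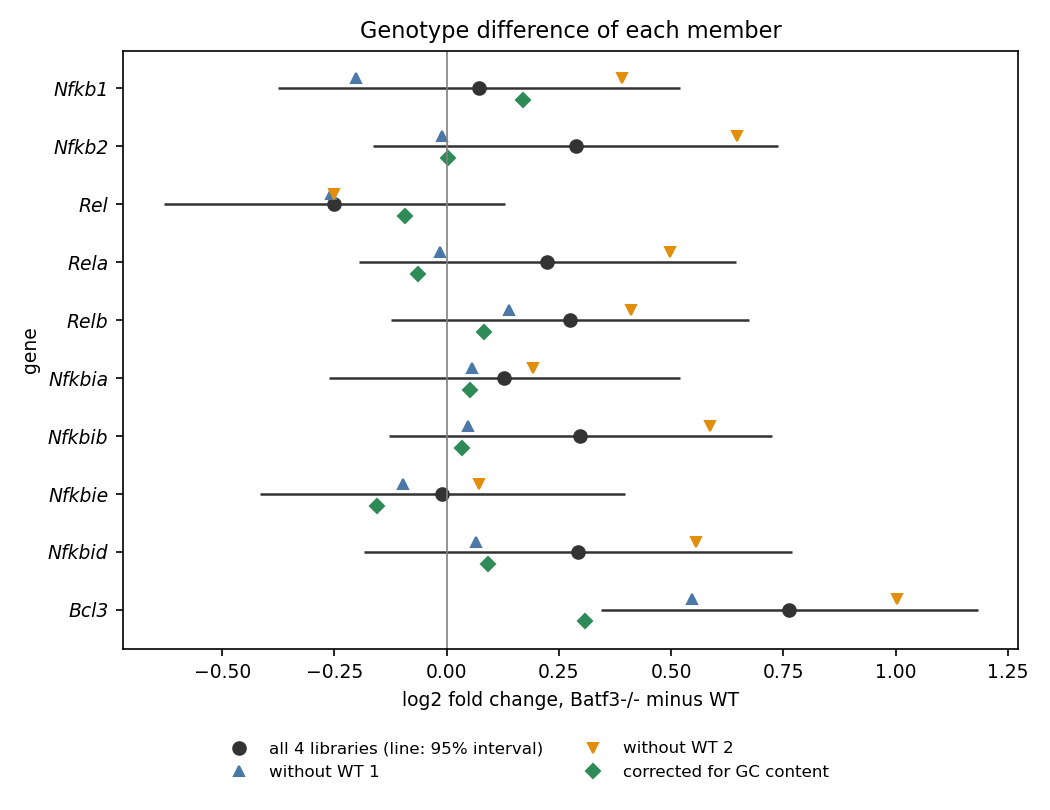
Log2 fold change of each member, Batf3-/- minus WT (horizontal axis): black circles are the fit to all 4 libraries with their 95% interval, blue and orange triangles the fits without WT 1 and without WT 2, and green diamonds the fit corrected for GC content. Only the interval of Bcl3 lies wholly above 0, and for 9 members the orange triangle lies to the right of the blue one by more than for Rel, whose triangles nearly coincide.

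Most members were low in WT 1. This library was the lowest for 9 of the 10 members, the exception being Rel, against 32.4% of all tested genes. The difference between the WT libraries, log2 CPM of replicate 2 minus replicate 1, had a median of 0.46 over the members, from -0.0035 for Rel to 0.65 for Nfkb2, against 0.01 over all tested genes. Between the Batf3-/- libraries the same difference had a median of 0.04 and ran from -0.21 for Nfkbid to 0.25 for Bcl3. The log2 ratio of Batf3-/- to WT was therefore unequal between replicate numbers: it was positive for 9 members with a median of 0.40 within number 1, and positive for 6 with a median of 0.05 within number 2. Over all tested genes the medians were -0.01 and 0.00. The titles of same-numbered libraries share a prefix, whose meaning the labels do not give.

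Within replicate number 1 the log2 ratio was 0.65 for Nfkbid, 0.60 for Nfkb2, 0.59 for Nfkbib, 0.43 for Rela, 0.38 for Relb and 0.32 for Nfkb1. Within replicate number 2 the same 6 genes were at -0.04, 0.04, 0.05, 0.07, 0.18 and -0.12. Bcl3 was the only member above 0.2 in both replicate numbers and Rel the only one below -0.2 in both.

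**Figure D3:**
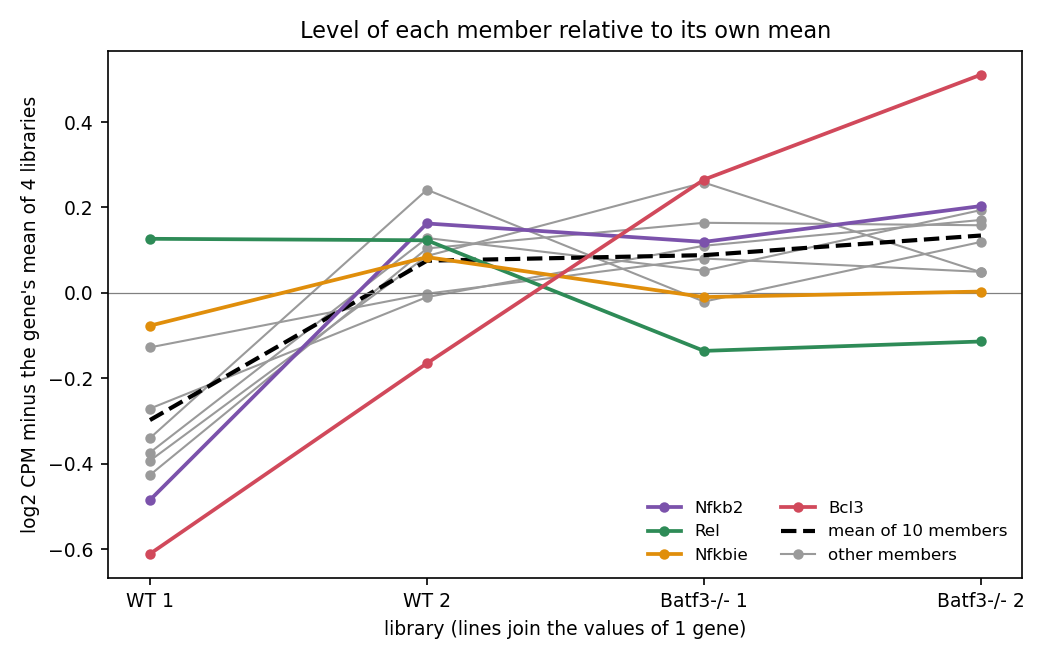
Log2 CPM of each member minus its own mean over the 4 libraries (vertical axis) in each library (horizontal axis); coloured lines mark Bcl3, Rel, Nfkb2 and Nfkbie, grey lines the other members, and the dashed line the mean of the 10. The mean lies at -0.30 in WT 1 and at 0.08 to 0.13 in the other 3 libraries, while Rel runs the other way.

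Transcript GC content moved with these differences. Across 12105 tested genes with a transcript sequence, the median log2 fold change ran from -0.20 in the lowest of 5 equal groups of genes by GC content to 0.24 in the highest, where 86.6% of genes were positive. The trend was strongest in WT 1, in which the log2 CPM of a gene relative to its mean over the libraries had a median of 0.24 in the lowest group and -0.24 in the highest, against -0.05 and -0.01 in WT 2. The medians ran from -0.07 to 0.12 in Batf3-/- 1 and from -0.10 to 0.15 in Batf3-/- 2. Each gene's values are centred on their own mean, so a trend in WT 1 alone pushes the other libraries the opposite way. How much of the Batf3-/- trend arises from this centring was not tested. A GC trend of the libraries and a genotype difference that follows GC content cannot be told apart here. The members were GC-rich, with a median of 56.95% against 49.8% for all tested genes: 6 lay in the highest group (Nfkb2, Rela, Relb, Nfkbib, Nfkbid and Bcl3, the last at 62.7%), Nfkbia and Nfkbie in the next, Nfkb1 at 44.9% in the group next to the lowest and Rel at 42.5% in the lowest. With each library's GC trend taken out, a fit that called 0.0989% of tested genes, the median log2 fold change of the members was 0.04, and 7 of the 10 lay within 0.1 of 0. Bcl3 was then at 0.31, Nfkb1 at 0.17 and Nfkbie at -0.15. Rela changed sign, to -0.06, and none of the 10 passed in edgeR.

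**Figure D4:**
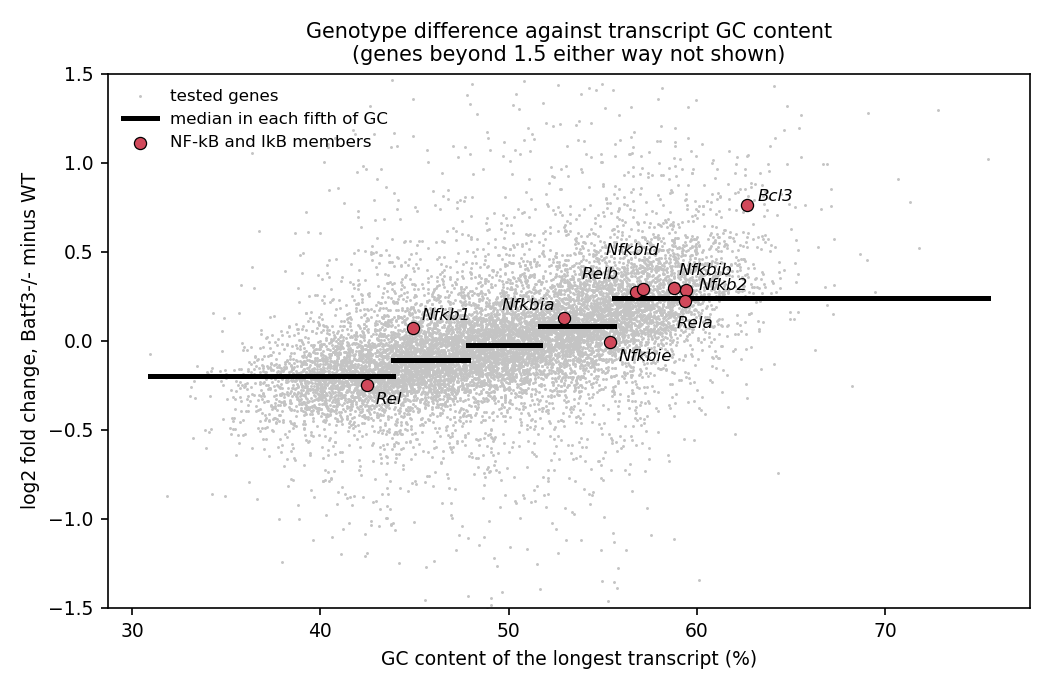
Log2 fold change, Batf3-/- minus WT (vertical axis), against the GC content of the longest transcript (horizontal axis) for tested genes (grey) and the 10 members (red); black bars are medians in each of the 5 groups of genes by GC content. Genes beyond 1.5 in either direction are not shown. The bars climb from -0.20 to 0.24, most members lie near the bar of their own group, and Bcl3 lies above it.

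To compare genes with each other, CPM were divided by the length of the longest annotated transcript. Averaged over the 4 libraries, Nfkb1 and Nfkbia were the most abundant members, at 157 ± 26.0 and 156 ± 9.69 CPM per kilobase (mean ± SD, n = 4 libraries), and their ranges overlapped. Nfkb2 followed at 100.1 ± 20.1, below both without overlap, and then Bcl3 at 51.2 ± 16.65. Rela at 31.5 ± 5.16 and Nfkbib at 30.9 ± 5.52 could not be ordered beyond their spread, and neither could Relb (18.4 ± 2.39) and Rel (16.1 ± 1.60). The ranges of Bcl3 and Rela overlapped across libraries, but Bcl3 was above Rela in each of the 4, by either length. Nfkbie (13.7 ± 0.627) and Nfkbid (9.57 ± 1.72) were the lowest, and each lay below its neighbour in the order in all libraries. Nfkb1 stood above 97.2% of tested genes on this scale and Nfkbid above 55.1%. The place of Nfkb1 depends on the length used: with the union of its annotated exons, 12061 bases in place of 4149, its level was 53.8 CPM per kilobase, the third in the order, behind Nfkbia at 153 and Nfkb2 at 84.0.

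On the same per-kilobase scale, Nfkb1 made up 49.1% of subunit RNA in WT 1, 50.5% in WT 2, 46.8% in Batf3-/- 1 and 47.7% in Batf3-/- 2. The share of Nfkb2 was 28.2% in WT 1, 30.4% in WT 2, 32.8% in Batf3-/- 1 and 32.15% in Batf3-/- 2, and that of Rel was 7.01% and 4.80% against 4.47% and 4.20%. These shares depend on the length used: by union exon length Nfkb1 made up 26.0% to 28.85% and Nfkb2, then the largest, 38.7% to 44.4%. The ratio of the alternative-pathway pair Nfkb2 and Relb to the other 3 subunits was 0.522 in WT 1, 0.547 in WT 2, 0.635 in Batf3-/- 1 and 0.613 in Batf3-/- 2. These quantities lay on separate sides in the 2 genotypes by either length, as did the share of Rela, but an exact two-sided permutation test of 2 against 2 libraries cannot give a p below 0.333, which each of them had. The share of Relb overlapped, at 6.08% and 5.01% in the WT libraries against 6.06% and 5.84% (exact two-sided permutation p = 1). Nfkb2 (59.44%) and Relb (56.77%) are richer in GC than Nfkb1 and Rel, whereas Rela (59.39%) lies close to Nfkb2. The part of GC content in these ratios was not tested.

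The summed RNA of the 5 IkB family genes relative to the 5 subunits was 0.872 in WT 1, 0.707 in WT 2, 0.8665 in Batf3-/- 1 and 0.818 in Batf3-/- 2. By union exon length it was 1.34, 1.10, 1.29 and 1.22 in the same order, so which sum was the larger depends on the length. The groups overlapped by either length (difference of means 0.05 by the longest transcript, exact two-sided permutation p = 1). Within the IkB family, Nfkbia made up 65.5% in WT 1, 60.6% in WT 2, 58.2% in Batf3-/- 1 and 55.8% in Batf3-/- 2. The share of Bcl3 was 14.8%, 17.1%, 20.9% and 24.3% in the order of the libraries above, and the ratio of Bcl3 to its binding partners Nfkb1 and Nfkb2 was 0.167 and 0.149 against 0.2275 and 0.249. These 3 quantities and the share of Nfkbie did not overlap between the genotypes, each with an exact two-sided permutation p of 0.333, the smallest this design allows. The shares of Nfkbib (10.4% and 12.8% against 12.1% and 11.8%) and of Nfkbid (3.31% and 3.91% against 4.00% and 3.39%) overlapped, with exact two-sided permutation p of 1 and 0.667. Bcl3 is the most GC-rich of the 10, and the part of GC content in these shares was not tested either.

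The rest of the pathway was read from lists of kinases, adaptors, receptors, inhibitors and target genes. Of 72 tested genes in these lists that are not among the 10, 0 passed in edgeR, against 0.132% of all tested genes. An unadjusted p under 0.05 in edgeR was found for 0 of them, against 4.8% of all tested genes. DESeq2 and limma-voom called 0 in each list. Over all tested genes DESeq2 called 0.239%, and limma-voom called 10 genes higher and 6 lower. The median log2 fold change of the 72 genes was -0.04, with 33 positive, against a median of -0.01 and 48.4% positive over all tested genes. Both Batf3-/- libraries lay above both WT libraries for 12 of the 72 and below for 16, against 18.2% and 15.6% of all tested genes.

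Among the receptors that feed NF-kB, 7 of 8 were positive with a median of 0.09; after the GC correction 3 of 8 were positive and the median was -0.028. Tnfrsf25, the TL1A receptor gene, stood at 34.3 CPM in WT 1, 30.4 in WT 2, 41.6 in Batf3-/- 1 and 42.0 in Batf3-/- 2 (log2 fold change 0.37, adjusted p = 0.958, edgeR), and its log2 fold change was 0.061 after the GC correction. Cd40 stood at -0.32 and Tnfrsf4, which encodes the costimulatory receptor OX40, at 0.17. Among the adaptors, 5 of 9 were positive with a median of 0.04; Tradd, an adaptor of death-domain receptors, stood at a log2 fold change of 0.36, Traf1 at 0.25 and the ubiquitin ligase gene Birc3 at -0.24. Without WT 2, Birc2, a close relative of Birc3, passed in edgeR at a log2 fold change of -0.62 (adjusted p = 0.0415). With all 4 libraries Birc2 was at -0.27 (unadjusted p = 0.269, edgeR) and without WT 1 at 0.19, its level being 86.7 CPM in WT 1, 49.1 in WT 2, 51.6 in Batf3-/- 1 and 61.2 in Batf3-/- 2; it was named after its values were seen.

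Of the antigen receptor branch and the linear ubiquitin ligase, 4 of 6 genes were positive with a median of 0.07, or -0.09 after the GC correction. Malt1, which encodes the protease of the complex, stood at 741 CPM in WT 1, 676 in WT 2, 518 in Batf3-/- 1 and 601 in Batf3-/- 2 (log2 fold change -0.34, adjusted p = 0.958, edgeR; -0.067 after the GC correction). Bcl10 stood at -0.21, or -0.011 without WT 1, and Rnf31, the catalytic subunit of the linear ubiquitin ligase, at 0.29. Of the IKK complex and its kinases, 3 of 11 were positive with a median of -0.06; Ikbke, an IKK-related kinase gene on chromosome 1, stood at 0.36 (0.72 without WT 1 and 0.064 without WT 2), its relative Tbk1 at -0.29 and the upstream kinase gene Map3k7 at -0.28. The 6 genes of the ubiquitin ligase that degrades IkB proteins and of NF-kB precursor processing were all negative, with a median of -0.14 and with Skp1a at -0.26 (-0.014 without WT 1), Rbx1 at -0.23 and Cul1 at -0.16. Their transcripts had a median GC content of 44.4%, and after the GC correction 2 of the 6 were positive and the median was -0.05.

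Of 12 negative regulators 4 were positive, with a median of -0.09. Tnfaip3, which encodes the ubiquitin-editing enzyme A20 and is a target of NF-kB, stood at 244 CPM in WT 1, 271 in WT 2, 222 in Batf3-/- 1 and 287 in Batf3-/- 2; its log2 fold change was -0.02 and turned to 0.0073 with upper-quartile scaling. Zc3h12a, an RNA-degrading enzyme gene, stood at 0.38, Tax1bp1 at -0.29 and the deubiquitinase gene Cyld at -0.26. Nfkbiz, another atypical IkB gene, stood at 35.8 CPM in WT 1, 29.0 in WT 2, 31.6 in Batf3-/- 1 and 30.3 in Batf3-/- 2 (log2 fold change -0.06). Nfkbil1, from the same list of further IkB proteins, was at a log2 fold change of 0.32, or -0.21 after the GC correction.

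Target genes known from T cells gave no common direction. Apart from the members, 21 were tested, 10 were positive, and the median log2 fold change was -0.02. Il2ra, the IL-2 receptor alpha chain gene, stood at 2893 CPM in WT 1, 3846 in WT 2, 3259 in Batf3-/- 1 and 3052 in Batf3-/- 2 (log2 fold change -0.09, adjusted p = 0.975, edgeR). Irf4, a transcription factor gene that TH9 cells need, stood at a log2 fold change of -0.08, Ltb at 0.31, the survival gene Bcl2l1 at 0.29 (0.11 without WT 1) and Il2, at 2.15 to 5.67 CPM, at -0.63 (-1.28 without Batf3-/- 1 and -0.29 without Batf3-/- 2). The chemokine gene Ccl3 was too low to be tested.

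**Figure D5:**
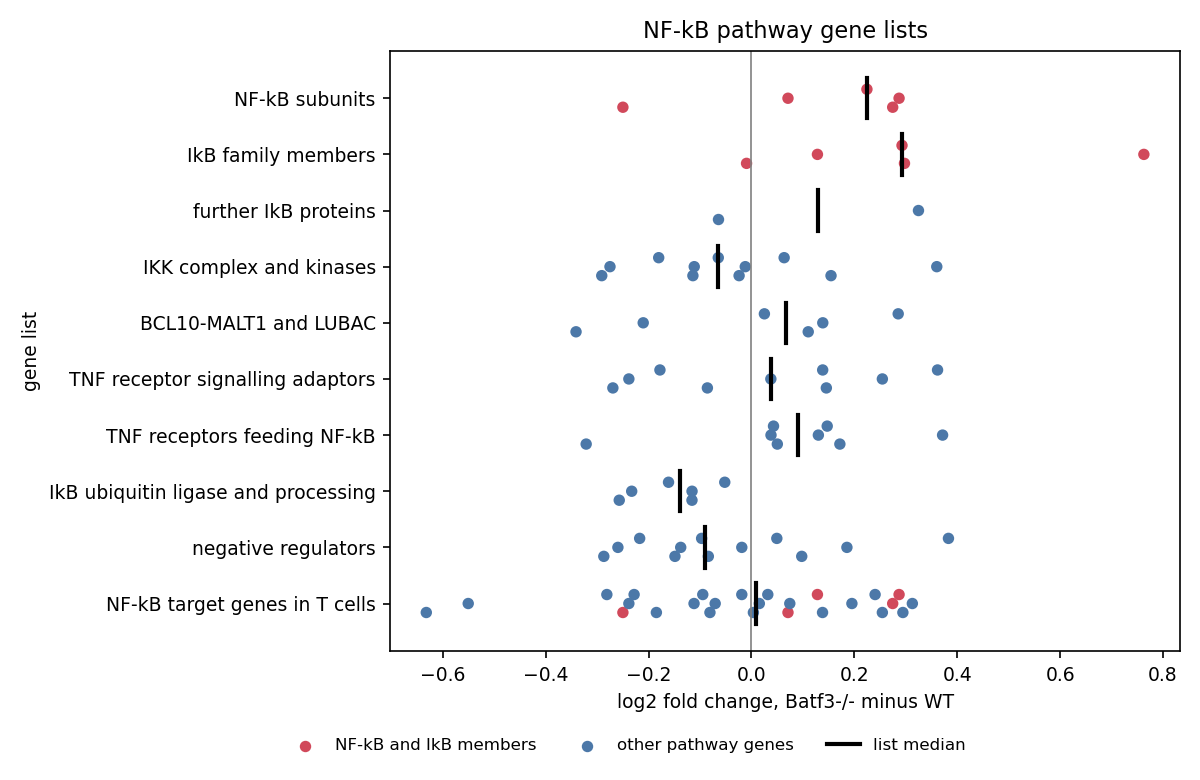
Log2 fold change, Batf3-/- minus WT (horizontal axis), of the tested genes in each list (rows); red points are the 10 members, some of which are also targets, blue points the other pathway genes, and black bars the list medians. The bars of the subunits and of the IkB family lie at 0.22 and 0.29 (0.0019 and 0.053 after the GC correction), those of the other lists between -0.14 and 0.13, and Bcl3 is the rightmost point.

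Many other genes had a profile over the libraries close to the mean of the members. The nearest, by the root mean square difference of centred log2 CPM over the 4 libraries, were Hgs, Samm50, Sesn2, Akt2 and Cnn2, at 0.0127 to 0.0166. Among the 9783 genes whose log2 CPM averaged 2 or more, 1028 lay within 0.1 of it, and the 10 members themselves set that mean. The 5 nearest genes had GC contents of 52.5% to 58.7%.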

How the data were processed

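RNA of 4 libraries was made with a stranded poly-A kit and read as single ends, per the labels' protocols. The authors' deposited table gives expected counts per gene, for which the submitters' processing notes name STAR 2.5.0, RSEM 1.2.25 and GRCm38. Neither the annotation used nor the strand setting is stated in the sources used here. Spike-in entries, at 0 in all libraries, were left out. Rounded to whole numbers, they went into edgeR 4.0.16 (R 4.3.3): filterByExpr (minimum count 10, minimum total 15), TMM factors (0.982 to 1.02), robust dispersions (common biological coefficient of variation 0.171), quasi-likelihood fit (glmQLFit, legacy=FALSE) and two-sided glmQLFTest with genotype as the only term, with Benjamini-Hochberg adjustment over 12135 genes at 0.05. Intervals are 95% from the fit's degrees of freedom. Levels are TMM-normalized CPM; log2 CPM had a prior count of 0.5. Gene positions, transcript lengths and GC content came from GENCODE M21 on GRCm38. The GC correction used offsets from a loess trend (span 0.5) of each library's log2 CPM on GC content. DESeq2 1.42.0 and limma 3.58.1 (voom) were alternatives, with other scalings and filters and each library left out. The pipeline was tested on simulated counts. One pathway gene and 1 marker gene of the lists are not reported here. The members and lists were chosen with earlier results of these data known. Named genes were all 10 members, Batf3, the genes with the smallest p-values in each pathway list (up to 4 by the rule, 3 taken), Nfkbiz, Tnfaip3, Tnfrsf25, Il2ra and Irf4, and the 5 genes nearest in profile. Counting error alone is small at these depths, and PCR copies are not independent molecules.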

Additional observations from a re-analysis of the deposited data

How the results depend on the processing

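Each result was recomputed with upper-quartile scaling or DESeq2 size factors, with all genes kept or those at 1 CPM in 2 libraries, with the DESeq2 Wald test, limma-voom, legacy=TRUE, each library left out, a replicate block, the GC correction, and the block with that correction. A count is taken as kept within 1.5 times, and a list median when it moved by less than the SD between replicates of the list's median level (0.24 for the 10 members, so that their median counts as kept at 0.02 or 0.04, on a par with 0.25). By this measure 301 recomputed values for the main comparisons were kept and 37 were not; of the other results, 506 kept direction and call, 23 changed sign, 3 newly passed the threshold and 2 levels moved. With 2 libraries per genotype, the intervals of 9 members take in 0, and those values do not show that the genotypes were alike. Leaving out WT 1 or WT 2 gave a median of 0.02 or 0.45 over the members, each from a fit with 1 WT library left.

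The same-numbered libraries share a title prefix without a stated meaning, and with 2 numbers a pairing could not be established. Across genes, the replicate differences of the 2 genotypes correlated at 0.105. Xist went with the replicate number in both genotypes. It stood at 0.214 CPM in WT 1 and 0.0944 in Batf3-/- 1, against 166 in WT 2 and 144 in Batf3-/- 2. With the replicate block, 81 genes were called higher and 31 lower, in place of 10 and 6, all 16 of which remained, and 1 member and 1 gene of the IkB family, Bcl3, passed (log2 fold change 0.78, adjusted p = 0.00301, edgeR). With the block and the GC correction together the counts were 50 and 33, and Bcl3 did not pass. The DESeq2 Wald test called 21 higher. Leaving out 1 library gave 11 to 301 genes higher and 7 to 252 lower, 0 to 2 members, 0 to 1 subunit, 0 to 1 gene of the IkB family, 0 to 1 adaptor (Birc2) and 0 to 1 target. The highest of these counts came without WT 2, where the target called was Nfkb2, the same gene as the subunit.

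The median log2 fold change of the subunits, 0.22, was 0.253 with upper-quartile scaling, 0.2435 with limma-voom, 0.246 with the block, 0.0019 with the GC correction, 0.018 with the block and GC correction, and -0.015 to 0.41 with 1 library left out. That of the IkB family, 0.29, was 0.053 with the GC correction and 0.057 to 0.55 with 1 library left out. With the GC correction, without and with the block, the medians were -0.14 and -0.14 for the further IkB proteins, -0.092 and -0.099 for the BCL10, MALT1 and linear ubiquitin list, and -0.028 and -0.022 for the TNF receptors. With 1 library left out, the BCL10, MALT1 and linear ubiquitin list ran from -0.048 to 0.12, the negative regulators from -0.10 to 0.094 and the targets from -0.12 to 0.18.

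Single genes that changed sign with 1 library left out were Nfkb1 (-0.20 to 0.39), Nfkb2 (-0.011 to 0.65), Rela (-0.015 to 0.50), Nfkbie (-0.10 to 0.073), Nfkbiz (-0.21 to 0.085), Tnfaip3 (-0.21 to 0.15), Il2ra (-0.30 to 0.13), Irf4 (-0.26 to 0.11) and Tnfrsf4 (-0.056 to 0.37), as did Birc2 (-0.62 without WT 2, 0.19 without WT 1). Without a change of sign, the range was 0.064 to 0.72 for Ikbke, -0.42 to -0.16 for Tbk1, -0.39 to -0.011 for Bcl10, 0.13 to 0.44 for Rnf31, -0.47 to -0.16 for Cd40, -0.47 to -0.014 for Skp1a, -0.39 to -0.087 for Rbx1, -0.42 to -0.11 for Cyld, 0.24 to 0.53 for Zc3h12a, 0.16 to 0.47 for Ltb, 0.12 to 0.55 for Nfkbil1, 0.11 to 0.49 for Bcl2l1 and -1.28 to -0.29 for Il2. With the GC correction, without and with the block, Rela was at -0.064 and -0.057, Tnfaip3 at 0.046 and 0.039, Il2ra at 0.016 and 0.043, Nfkbil1 at -0.21 and -0.22, and Ltb at -0.062 and -0.062. The GC correction alone also brought Tnfrsf25 to 0.061, Malt1 to -0.067, Tradd to 0.14, Tnfrsf4 to 0.042, Zc3h12a to 0.18, Tax1bp1 to -0.072, Cyld to -0.12, Skp1a to -0.13, Rbx1 to -0.067, Cul1 to -0.035 and Bcl2l1 to 0.14. With upper-quartile scaling Nfkbie was at 0.020 and Tnfaip3 at 0.0073. Per kilobase of union exon length, Nfkb1 stood at 53.8 and Relb at 15.5 CPM. Apart from the GC trend, whose removal is how that setting is built, the cause of these changes was not tested.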
